A study of Mus musculus with 2 samples.

Results

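The B cell receptor and identity factors described here are 9 genes of the 32285 measured: Cd79a, Cd79b, Ms4a1, Ebf1, Pax5, Bcl11a, Cd22, Cr2 and Fcer2a. They were selected by symbol, and all 9 were found in both libraries. They were followed by single-cell RNA sequencing in CD45+ cells (CD45 is a surface protein of leukocytes) from subcutaneous tumours in female C57BL/6 mice that were 6 to 7 weeks old, grown from the mouse oral carcinoma line MOC2. The series title names tumour-infiltrating macrophages and B lymphocytes as its subject. Once tumours were palpable, one arm of 10 mice received Momordicine-I, a bitter melon triterpenoid, at 30 mg/kg into the peritoneum each day, and the other arm of 10 received the vehicle of DMSO and Captisol. All mice carried tumours of the same line. Tumours of 3 mice per arm were pooled, stained with propidium iodide and a FITC-labelled CD45 antibody, and sorted, which gave 1 library per arm, called the vehicle and the Momordicine-I or treated library. There is thus no replicate, no test was run, and each difference is one between these libraries.

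Cd79a and Cd79b encode the paired chains that couple membrane immunoglobulin to signalling in B cells. Ebf1 and Pax5 are transcription factors that set and hold the B lineage programme, and Bcl11a is a zinc finger repressor needed for B cell development and also used by plasmacytoid dendritic cells. Ms4a1 encodes CD20, Cd22 encodes a sialic acid binding co-receptor that restrains receptor signals, Cr2 encodes the complement receptors CD21 and CD35, and Fcer2a encodes CD23, a low-affinity IgE receptor; Cr2 and Fcer2a are used to tell mature B cell subsets apart.

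Promoter sequence is shown for 3 members because they hold the roles that the values turn on: Cd79a defined the B cells, Pax5 is an identity factor whose level was similar in both libraries, and Bcl11a was the member farthest from equal between the libraries in B cells of the Cd79a gate. The sequences are those of RefSeq for build GRCm38.p6, 5′ to 3′ on the strand of the gene, cut where an annotated exon begins. Capitals mark the letters TCNNGGGA, searched on both strands, a form of the EBF1 site as it stands in the Cd79a promoter. The Cd79a stretch is chr7:24897247-24897380 on the plus strand, that of Pax5 is chr4:44710695-44710944 on the minus strand, and that of Bcl11a is chr11:24080445-24080669 on the plus strand.
Cd79a: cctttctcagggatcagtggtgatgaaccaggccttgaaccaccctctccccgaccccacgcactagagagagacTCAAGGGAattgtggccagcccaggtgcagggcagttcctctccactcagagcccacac
Pax5: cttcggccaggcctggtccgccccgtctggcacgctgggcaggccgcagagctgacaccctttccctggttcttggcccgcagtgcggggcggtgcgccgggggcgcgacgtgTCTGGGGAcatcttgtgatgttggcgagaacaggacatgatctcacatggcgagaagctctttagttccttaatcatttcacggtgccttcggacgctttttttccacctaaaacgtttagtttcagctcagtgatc
Bcl11a: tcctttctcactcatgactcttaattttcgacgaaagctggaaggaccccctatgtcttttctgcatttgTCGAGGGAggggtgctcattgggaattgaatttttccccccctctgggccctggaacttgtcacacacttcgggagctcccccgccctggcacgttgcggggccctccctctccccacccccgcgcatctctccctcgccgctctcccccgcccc

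The match begins 175 bases before the start site in Cd79a, 137 in Pax5 and 180 in Bcl11a. The windows searched were 10, for the 7 members other than Cd79b and Ms4a1. Among 250-base windows before a start site, 15.1% of 32851 in the mouse table held TCNNGGGA, as did 5 of the 10 member windows, in Cd79a, Pax5, Bcl11a and Fcer2a. These counts are over whole windows, which were not cut at exons. The full EBF palindrome differs from that form at an inner base, so the same letters cannot match both. It was in 0.779% of windows and in 1 member, Cd22, where it lies past the point at which an annotated exon begins. The ETS core GGAAGT was in 19.7% of windows and in 4 of 10 member windows, of which the Cd79a match also lies past an exon start. The octamer ATTTGCAT was in 1.60% and in no member window. These matches are descriptions of the letters, and the form TCNNGGGA was chosen after the windows were read.

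The kept barcodes, those with at least 200 genes and at most 10% mitochondrial UMIs (unique molecular identifiers, one per captured transcript), numbered 3364 (vehicle) and 4370 (Momordicine-I), and the median barcode had 5760 and 5002 UMIs. The libraries shared 10 barcode sequences, none of them among the B cells. A barcode was called a B cell at 2 or more Cd79a UMIs, which makes Cd79a part of the definition and not a finding. B cells were 256 barcodes in the vehicle library, a share of 7.61% (95% interval 6.74 to 8.56), and 97 in the Momordicine-I library, 2.22% (1.80 to 2.70). The ratio of these shares, Momordicine-I to vehicle, was 0.292 (0.228 to 0.370). Intervals are exact and cover counting error only: each UMI or barcode is taken as independent, and differences between mice are outside them.

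Few barcodes lay near the gate. At exactly 2 Cd79a UMIs stood 8 vehicle and 5 Momordicine-I barcodes, all of which held at least 3 other members. At 1 UMI stood 66 and 20 barcodes, of which 4 and 2 held at least 3 other members, and among the 3042 and 4253 barcodes without a Cd79a UMI 5 and 5 did. In a clustering of all barcodes from which the 9 members had been removed, 243 of 256 and 93 of 97 B cells fell into a single B cell-like cluster of 248 and 100 barcodes, led by Jchain, Ebf1 and Cd79a.

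B cells also carried UMIs of marker genes of other classes. The 5 neutrophil markers were all detected and summed to 6941 CPM (UMIs per 1000000 of the summed B cell UMIs) in the vehicle and 5160 CPM in the treated library, led by Cxcl2 at 6149 and 4578 CPM. The 5 T cell markers summed to 55.5 and 108 CPM, the 7 macrophage markers to 158 and 277 CPM with Ms4a7 at 0 in the Momordicine-I library, and the 4 plasmacytoid dendritic markers to 30.4 and 4.83 CPM with Klk1 at 0 in both. The 4 plasma cell markers summed to 3731 and 142 CPM, of which Jchain made up 3367 CPM in the vehicle library, and Derl3 was at 0 in the other. Barcodes that also passed the gate of another class made up 48.0% and 39.2% of the B cells. Among them 72 and 23 passed the neutrophil gate, the largest count of any gate in both libraries. The plasma cell gate, which is of the B lineage, was passed by 49 and 9, and the endothelial gate by 35 and 1. The macrophage or monocyte gate was passed by 16 and 4, the T cell gate by 15 and 4, and the carcinoma gate by 15 and 8. A barcode can pass several of these. Over all B cells the endothelial markers were led by Pecam1, a gene B cells also use, at 110 and 69.3 CPM, with Plvap and Cldn5 at 0 in both libraries.

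Within B cells, 8 of the 9 members lay within 1.5-fold between the libraries and Bcl11a alone was lower past that fold. Among the 8402 genes with at least 20 UMIs in B cells, 13.5% were lower past 1.5-fold and 12.9% higher, so 1 member of 9 is near the background. The median log2 ratio of the 9 members was -0.03, beside 0.06 for all genes measured. That median is the value of Cd79a itself, so it does not stand apart from the gate. The ratios were different under a wider gate of 3 or more summed UMIs of 5 other B cell genes. It used no member and took 650 vehicle and 224 Momordicine-I barcodes. There Cd79a (0.634), Cd79b (0.645), Cd22 (0.496) and Cr2 (0.484) were lower past 1.5-fold, and Bcl11a (0.677) was not. These barcodes outnumber the 248 and 100 of the B cell-like cluster. Ighm, a gene of this gate, was at 111 and 33.4 CPM outside the B cells of the Cd79a gate. What share of them are B cells was not tested.

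**Figure D1:**
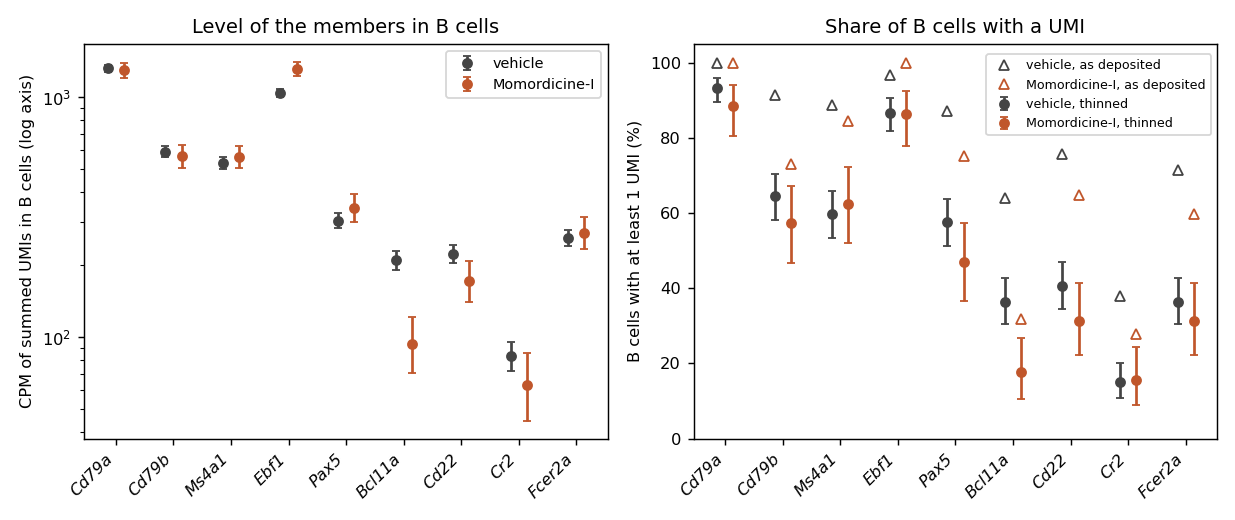
Left, CPM of the summed UMIs of each member in B cells on a log axis, with exact 95% Poisson intervals; right, the share of B cells with at least 1 UMI, as deposited (triangles) and after thinning each cell to 2000 UMIs (points with exact 95% binomial intervals). The intervals of the 2 libraries are apart for Ebf1 and Bcl11a on the left and for Bcl11a on the right.

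Summed over all B cells of the Cd79a gate, the receptor chains were at similar levels, where the level of Cd79a is bound up with the gate. Among B cells of 3000 to 10000 UMIs both chains were lower in the Momordicine-I library, Cd79a at a ratio of 0.832 (0.762 to 0.908). Cd79a (chr7:24897381-24902197) had 3197 UMIs in vehicle B cells, or 1315 CPM, and 801 UMIs or 1291 CPM in those of the Momordicine-I library. Cd79b (chr11:106311341-106314762) had 1438 UMIs or 591 CPM and 351 UMIs or 566 CPM, a ratio of 0.956 (0.849 to 1.08), and of 0.835 (0.731 to 0.952) among B cells of 3000 to 10000 UMIs. The share of B cells with a Cd79b UMI was lower in the Momordicine-I library as deposited, 73.2% against 91.4%. After thinning to 2000 UMIs a cell, which left 253 and 96 B cells, it was 57.3% (46.8 to 67.3) and 64.4% (58.2 to 70.3), whose intervals overlap. The median B cell held 6455 UMIs in the vehicle and 5117 in the treated library, so the shares as deposited are not at equal depth.

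Ms4a1 (chr19:11249675-11266241), which encodes CD20, was likewise at 530 and 561 CPM, a ratio of 1.06 (0.938 to 1.19). It had a UMI in 88.7% and 84.5% of B cells, and in 59.7% and 62.5% after thinning. Its ratio fell on the other side of 1 in 8 of 17 alternative settings, so it has no direction here.

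Of the lineage factors under the Cd79a gate, Ebf1 had a higher summed level in the Momordicine-I library and Pax5 had no settled direction. Ebf1 (chr11:44617317-45008091) had 2531 UMIs or 1041 CPM in vehicle B cells and 811 UMIs or 1307 CPM in Momordicine-I B cells, a ratio of 1.26 (1.16 to 1.36). At equal depth it was found in 86.6% and 86.5% of B cells. Pax5 (chr4:44524757-44710487) had 741 UMIs or 305 CPM and 214 UMIs or 345 CPM, a ratio of 1.13 (0.967 to 1.32), with thinned shares of 57.7% and 46.9%. The Ebf1 ratio stayed inside 1.5-fold in all 17 alternative settings. It turned below 1 in 1 of them, the wider gate that used none of the members, where its log2 ratio was -0.26.

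Bcl11a (chr11:24078056-24174123) had 507 UMIs in 164 of 256 vehicle B cells, 209 CPM (191 to 227), and 58 UMIs in 31 of 97 Momordicine-I B cells, 93.5 CPM (71.0 to 121). The level was lower in the Momordicine-I library, at a ratio of 0.448 (0.336 to 0.589), a log2 difference of -1.16. No single cell carried it: the top cell held 3.75% of the vehicle and 6.90% of the Momordicine-I UMIs. The median B cell had 167 CPM of Bcl11a in the vehicle library and 0 in the other.

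The lower level was also a lower share of cells. Bcl11a had a UMI in 64.1% (57.9 to 69.9) of vehicle and 32.0% (22.9 to 42.2) of Momordicine-I B cells. After thinning to 2000 UMIs the shares were 36.4% (30.4 to 42.6) and 17.7% (10.7 to 26.8). Of all genes measured in B cells, 4.4% were lower past 1.5-fold with the whole interval below 1, as Bcl11a was. Leaving out all B cells that passed another gate gave a ratio of 0.433 (0.301 to 0.608). Across the 17 alternatives the log2 ratio of Bcl11a ran from -1.37 to -0.49. It came within 1.5-fold in 2 of them, thinning to 1000 UMIs a cell (0.712) and the wider gate without members (0.677).

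Under the Cd79a gate, the ratios of the surface receptors of mature B cells were closer to 1. Cd22 (chr7:30865402-30880342) had 537 UMIs or 221 CPM and 106 UMIs or 171 CPM, a ratio of 0.773 (0.622 to 0.954). Its thinned shares were 40.7% and 31.2%, and its ratio turned above 1, to a log2 of 0.15, when mitochondrial UMIs were limited to 5%. Cr2 (chr1:195136811-195176716) had the fewest UMIs of the members, 202 or 83.1 CPM and 39 or 62.9 CPM, and its interval of 0.523 to 1.07 spans 1. Without barcodes that passed another gate its ratio was 0.531, past 1.5-fold. Its thinned shares were 15.0% and 15.6%. Fcer2a (chr8:3681737-3694175) was at 259 and 271 CPM, a ratio of 1.05 (0.877 to 1.24), with thinned shares of 36.4% and 31.2%, and fell on the other side of 1 in 9 of 17 settings.

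**Figure D2:**
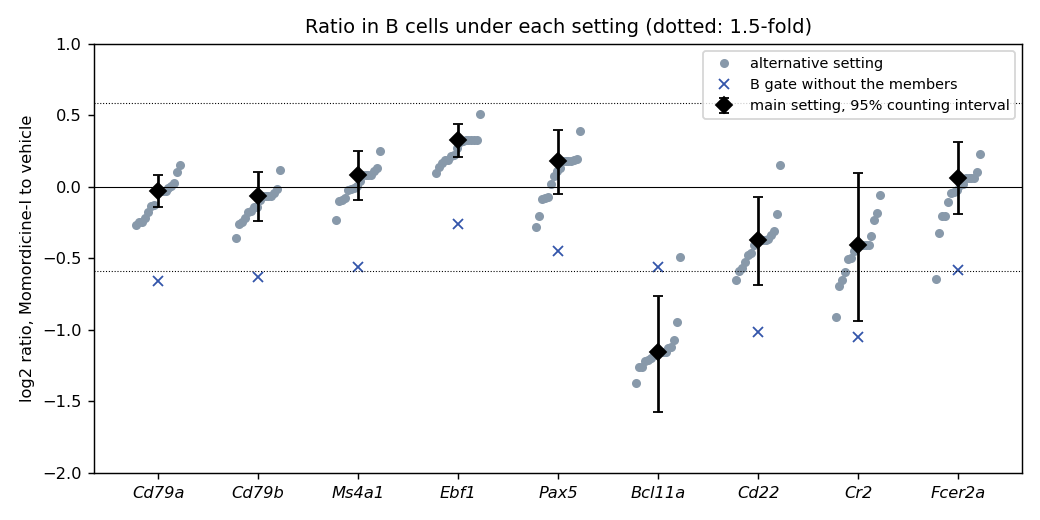
Log2 ratio of each member in B cells, Momordicine-I to vehicle, in the main setting (diamond with its 95% counting interval). Crosses mark the wider gate that uses no member, and points each other alternative. Dotted lines mark 1.5-fold. Bcl11a lies below 0 in all settings, from -1.37 to -0.49, and Ms4a1 and Fcer2a lie on both sides of 0.

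The levels depended on the depth of the B cell. Barcodes with 10000 or more UMIs were 54 of the vehicle and 11 of the Momordicine-I B cells and held 49.4% and 28.8% of all B cell UMIs. Of these, 94.4% and 100% also passed the gate of another class, and they had lower CPM of each member than B cells of 3000 to 10000 UMIs: Cd79a was at 768 CPM in vehicle barcodes of that depth and at 1912 CPM in those of 3000 to 6000 UMIs. The summed CPM of the vehicle library therefore weighs such barcodes more, and the members were compared again without them.

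Among B cells of 3000 to 10000 UMIs, 197 in the vehicle and 83 in the treated library, 3 of the 9 members were lower past 1.5-fold and none was higher. The background there was 15.1% lower and 10.6% higher of 6706 genes. Bcl11a was at 302 and 117 CPM, a ratio of 0.387 (0.283 to 0.520). Cd22 was at 318 and 202 CPM, a ratio of 0.636 (0.499 to 0.803), and Cr2 at 119 and 73.5 CPM, a ratio of 0.619 (0.408 to 0.912). The median log2 ratio of the members was -0.26, beside -0.02 for all genes at that depth. This median is again the value of Cd79a itself, so it does not stand apart from the gate. Ebf1 was closer to equal, at 1.10 (1.01 to 1.20), and Cd79a, the gate gene, was at 0.832 (0.762 to 0.908). Bcl11a was lower in each of 3 depth classes, as were Cd79a, Cd79b, Cd22 and Cr2. It was at 341 and 145 CPM in cells of 3000 to 6000 UMIs, 274 and 53.5 CPM in cells of 6000 to 10000, and 110 and 39.1 CPM above that.

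**Figure D3:**
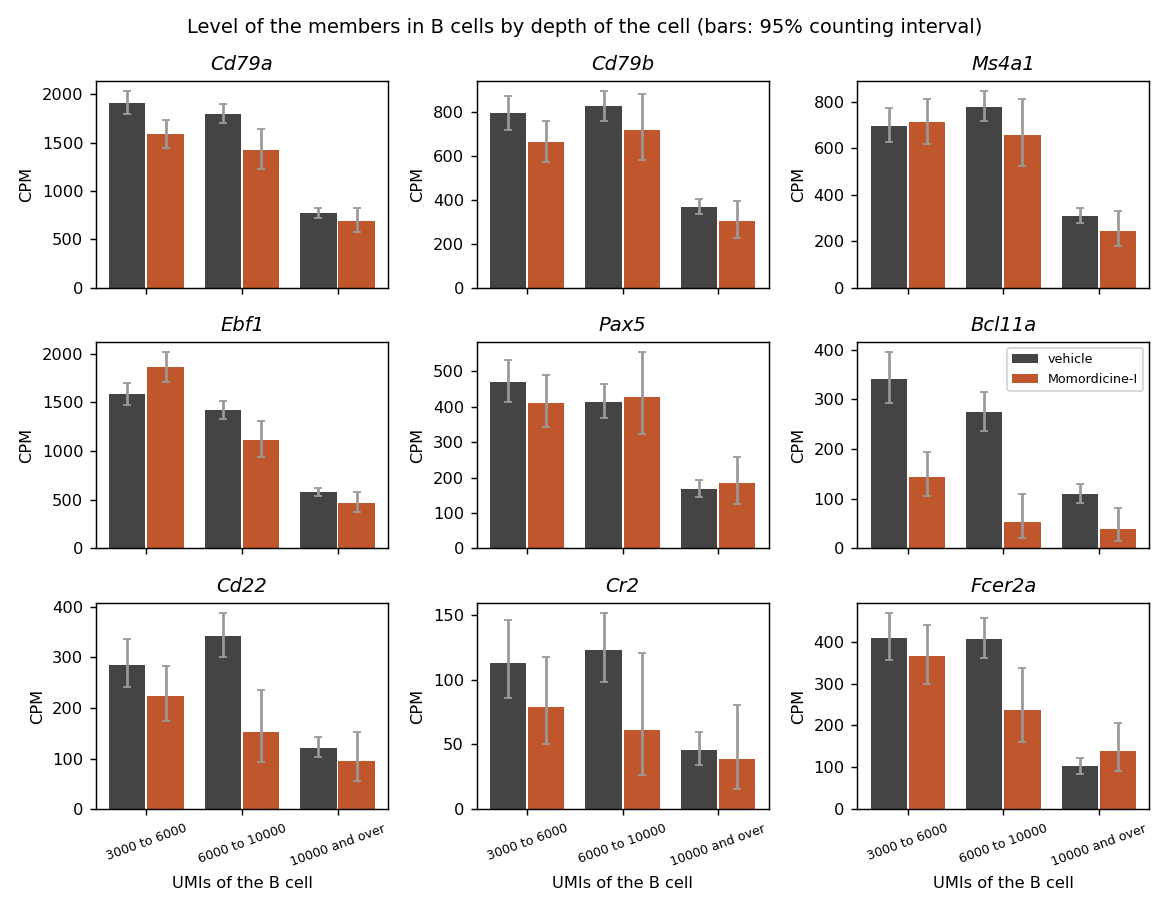
CPM of each member in B cells of 3 depth classes, vehicle and Momordicine-I side by side, with exact 95% Poisson intervals. All members are lowest in barcodes of 10000 UMIs and over, and Bcl11a is lower in the Momordicine-I library in each class.

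As deposited, the median B cell held most members, counting Cd79a, which the gate places in every B cell. A vehicle B cell had a UMI of 8 of the 9 at the median and a Momordicine-I B cell of 6, or 5 and 4 after thinning. All 9 were found in 41 (16.0%) and 8 (8.25%) B cells. Cr2 and Fcer2a were found together in 80 vehicle and 18 Momordicine-I B cells, Cr2 alone in 17 and 9, Fcer2a alone in 103 and 40, and neither in 56 and 30. These classes follow depth as well as subset, since a gene of few UMIs is missed in shallow cells, and no subset is named from them.

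Bcl11a was found more often in B cells that had a Fcer2a UMI. In the vehicle library it was in 131 of 183 (71.6%) with Fcer2a and in 33 of 73 (45.2%) without, and in the Momordicine-I library in 22 of 58 (37.9%) and 9 of 39 (23.1%). At 2000 UMIs a cell the shares were 51.1% (47 of 92) and 28.0% (45 of 161) in the vehicle library. In the Momordicine-I library they were 23.3% (7 of 30) and 15.2% (10 of 66). These are few cells, and whether the 2 shares differ was not tested. The share was lower in the Momordicine-I library on both sides of this split.

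The other genes of the pathway were within 1.5-fold over all B cells. Of 20 genes of B cell receptor signalling, all measured, none was past 1.5-fold in either direction, with a median log2 ratio of 0.13. Of all genes in B cells, 12.9% were higher and 13.5% lower past that fold. Among B cells of 3000 to 10000 UMIs 1 was lower, Plcg2, which was named after its value was seen, and the median was -0.04. The background at that depth was 15.1% lower and 10.6% higher. Syk, the kinase that binds the phosphorylated receptor chains, was at 432 and 477 CPM, a ratio of 1.10 (0.968 to 1.26). Malt1, which carries the signal to NF-kB, was at 1.30 (1.13 to 1.48), and the adaptor Bank1 at 1.01 (0.880 to 1.17).

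Among 10 inhibitory receptors and phosphatases, 3 were lower and none higher, with a median log2 ratio of -0.07, against 13.5% lower and 12.9% higher of all genes. At 3000 to 10000 UMIs 3 of 8 measured were lower, against 15.1% of all genes at that depth, with a median of -0.17. Ptpn6, the phosphatase SHP-1 that CD22 recruits, was at 197 and 129 CPM, a ratio of 0.653 (0.509 to 0.829), and at 0.523 (0.383 to 0.703) among B cells of 3000 to 10000 UMIs. Pecam1, an adhesion receptor with inhibitory motifs, was at 110 and 69.3 CPM, a ratio of 0.631 (0.446 to 0.873). Among B cells of 3000 to 10000 UMIs it was 0.542 (0.366 to 0.782), and after thinning 0.581 (0.309 to 1.03). Without barcodes that passed another gate, one of which rests on Pecam1 itself, it was 0.743 (0.436 to 1.22). Lair1, which the naming rule did not reach, had only 40 and 5 UMIs, and its interval spans 1. Inpp5d, the lipid phosphatase SHIP1, was at 0.995 (0.802 to 1.23) and Siglecg at 1.08 (0.848 to 1.35).

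Of 18 transcription factors of the B lineage, 2 (11.1%) were higher and none lower, with a median log2 ratio of 0.09. Of all genes in B cells, 12.9% were higher and 13.5% lower, so the higher count is near the background. At 3000 to 10000 UMIs, of 16 measured, Pou2af1 was higher and Pou2f2 lower, both named after their values were seen, and the median was -0.16. All genes at that depth were 10.6% higher and 15.1% lower. Ets1, a factor that restrains plasma cell formation, was at 552 and 906 CPM, a ratio of 1.64 (1.49 to 1.81), which fell to 1.34 (1.19 to 1.5) among B cells of 3000 to 10000 UMIs and to 1.24 (1.03 to 1.48) after thinning. Myb, a factor of progenitors, was at 3.92 (1.67 to 9.18) on 13 UMIs in each library, with 46.2% of the Momordicine-I UMIs in 1 cell. Klf2 was at 1.18 (1.12 to 1.25) but at 0.890 (0.835 to 0.949) among B cells of 3000 to 10000 UMIs, and Mef2c at 1.05 (0.956 to 1.16) and 0.899 (0.806 to 1.00).

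Of 20 other genes of mature B cells, 1 was higher and 1 lower, against 12.9% higher and 13.5% lower of all genes. The median log2 ratio was -0.01, and -0.23 at 3000 to 10000 UMIs. Cxcr5, the chemokine receptor that guides B cells to follicles, was at 73.6 and 131 CPM, a ratio of 1.77 (1.35 to 2.32), and stayed above 1.5-fold at 1.60 (1.17 to 2.16) in B cells of 3000 to 10000 UMIs. Ighm, the heavy chain of IgM, was at 26841 and 2925 CPM, a ratio of 0.109, but 3 vehicle barcodes held more than 50% of its UMIs, 1 of them 22.9%. The median B cell had 19 Ighm UMIs in the vehicle and 17 in the treated library, and among B cells of 3000 to 10000 UMIs the ratio was 1.13 (1.07 to 1.20). Ighd was at 1.04 (0.945 to 1.15) and Cd74, the invariant chain of antigen presentation, at 1.03 (1.00 to 1.07). At that depth both turned below 1, to 0.808 (0.725 to 0.899) and 0.834 (0.805 to 0.865).

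**Figure D4:**
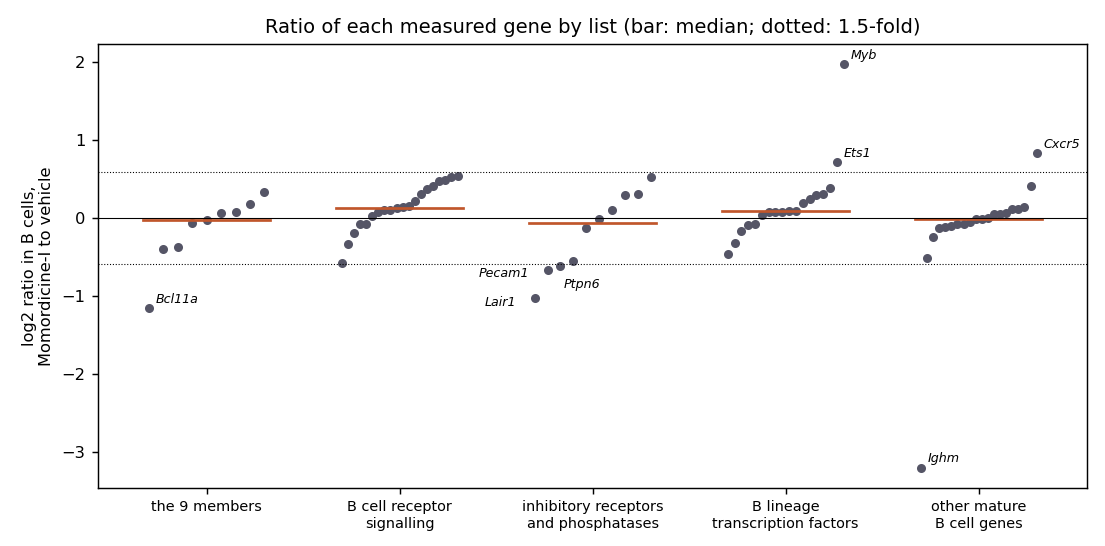
Log2 ratio in B cells, Momordicine-I to vehicle, of each measured gene in the 9 members and in 4 gene lists; bars are medians and dotted lines mark 1.5-fold. Genes past 1.5-fold are named, and the medians lie between -0.07 and 0.13.

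The genes whose pattern over kinds of cells was most like the mean of the 9 members were found by Pearson's r of log2(CPM + 1) over 16 sums of a marker class in a library. These sums share 2 libraries, and the B cells of both set most of each r. Among the highest were Vpreb3 (0.966), Gm31243 (0.957), Iglc3 (0.95) and Pou2af1 (0.939), followed by Bank1 (0.937), Cacna1i (0.936), 2010007H06Rik (0.935), Ighm (0.935) and Gm30211 (0.93). Of the members themselves, Bcl11a (0.734) and Cd79b (0.828) had the lowest r. Both had UMIs outside B cells, described below by cluster.

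Outside B cells, the barcodes with 0 or 1 Cd79a UMI, 6 of the 8 measured members were lower past 1.5-fold in the Momordicine-I library and none was higher, where 6.42% of 14835 genes were lower and 6.52% higher. Cd79a is 1 of these 6, but the gate limits it to 1 UMI a barcode there, so its place in the count is not a finding. Cr2 had 8 and 2 UMIs, too few to be measured. Ms4a1 was at 0.911 and 0.252 CPM, a ratio of 0.277 (0.120 to 0.587), and Fcer2a at 1.24 and 0.227 CPM, a ratio of 0.184 (0.0781 to 0.386). Ebf1 (0.551), Pax5 (0.363) and Cd22 (0.343) were lower as well. A few ungated barcodes of the B cell-like cluster, 5 and 7, held 17 of 69 and 23 of 49 Ebf1 UMIs and 6 of 32 and 11 of 15 Pax5 UMIs, and without these and the dendritic-like clusters the ratios were 0.308 for Ebf1 and 0.0623 for Pax5. After thinning to 2000 UMIs, the gate gene Cd79a alone was past 1.5-fold among members that reached 20 UMIs, and Ebf1 moved to 0.880.

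These low levels were lower in the library with fewer B cells. B cells held 7.33% of all UMIs in the vehicle and 1.54% in the treated library. In neutrophil-like barcodes, which should lack these genes, Cd79a was at 3.02 and 0.772 CPM, Ms4a1 at 1.17 and 0.14 CPM and Cd22 at 1.17 and 0.632 CPM. The Cd22 ratio there was 0.539 (0.206 to 1.34), whose interval spans 1. Whether the low levels of these members are background or expression was not tested. Ebf1 and Pax5 stood higher outside B cells as a whole, at 1.24 and 0.378 CPM in the treated library against 0.562 and 0.0702 CPM in its neutrophil-like barcodes, and the ungated B cell-like barcodes carried much of both. What part free RNA or doublets had was not tested.

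The ratios of Cd79b and Bcl11a were closer to 1. Cd79b was at 3.32 and 3.08 CPM outside B cells, a ratio of 0.927 (0.707 to 1.22), and Bcl11a at 6.24 and 6.76 CPM, a ratio of 1.08 (0.896 to 1.31). As the mean of the cells' own CPM the ratios were 0.653 and 1.54, both past 1.5-fold. In neutrophil-like barcodes Cd79b was at 1.34 and 0.491 CPM and Bcl11a at 1.68 and 1.83 CPM. B cells held 93.4% and 74.2% of all Cd79b UMIs and 72.5% and 17.8% of those of Bcl11a, beside 91.2% and 82.2% for Cd22 and 97.9% and 97.2% for Ms4a1.

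Cd79b was found in a T cell-like cluster led by Il17a, Cd163l1 and Tcrg-C1, genes of gamma-delta T cells that make IL-17; the tyrosine kinase gene Blk is also among its leading genes. The cluster was drawn without the members. It held 58 vehicle barcodes with 13 Cd79b UMIs in 11 of them, 38.8 CPM (20.6 to 66.3), and 193 Momordicine-I barcodes with 35 UMIs in 26 of them, 28.5 CPM (19.9 to 39.7). That is 4.94-fold (2.22 to 10.7) the level of the other T cell-like clusters in the vehicle and 3.31-fold (1.64 to 7.22) in the Momordicine-I library. B cells were 15.3-fold (8.89 to 28.7) and 19.8-fold (14.0 to 28.9) above the cluster.

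The partner chain was not found at a matching level in those barcodes. Cd79a had 1 UMI in each library, against 13 and 35 of Cd79b, while B cells had 0.450 and 0.438 Cd79b UMIs per Cd79a UMI. Since barcodes of 2 or more Cd79a UMIs are taken out by the gate, this count is bounded from above. Of the barcodes with a Cd79b UMI, 1 of 11 and 0 of 26 had a UMI of Cd79a or Ms4a1, and all 11 and 26 had one of Trdc, the constant gene of the delta chain. The share of the whole cluster with a Trdc UMI is not given here, so this count does not set these barcodes apart from the rest of the cluster. Pax5 and Bcl11a were at 0 there in both libraries. A T cell-like cluster led by Foxp3, the factor of regulatory T cells, had Cd79b at 11.6 and 12.3 CPM.

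**Figure D5:**
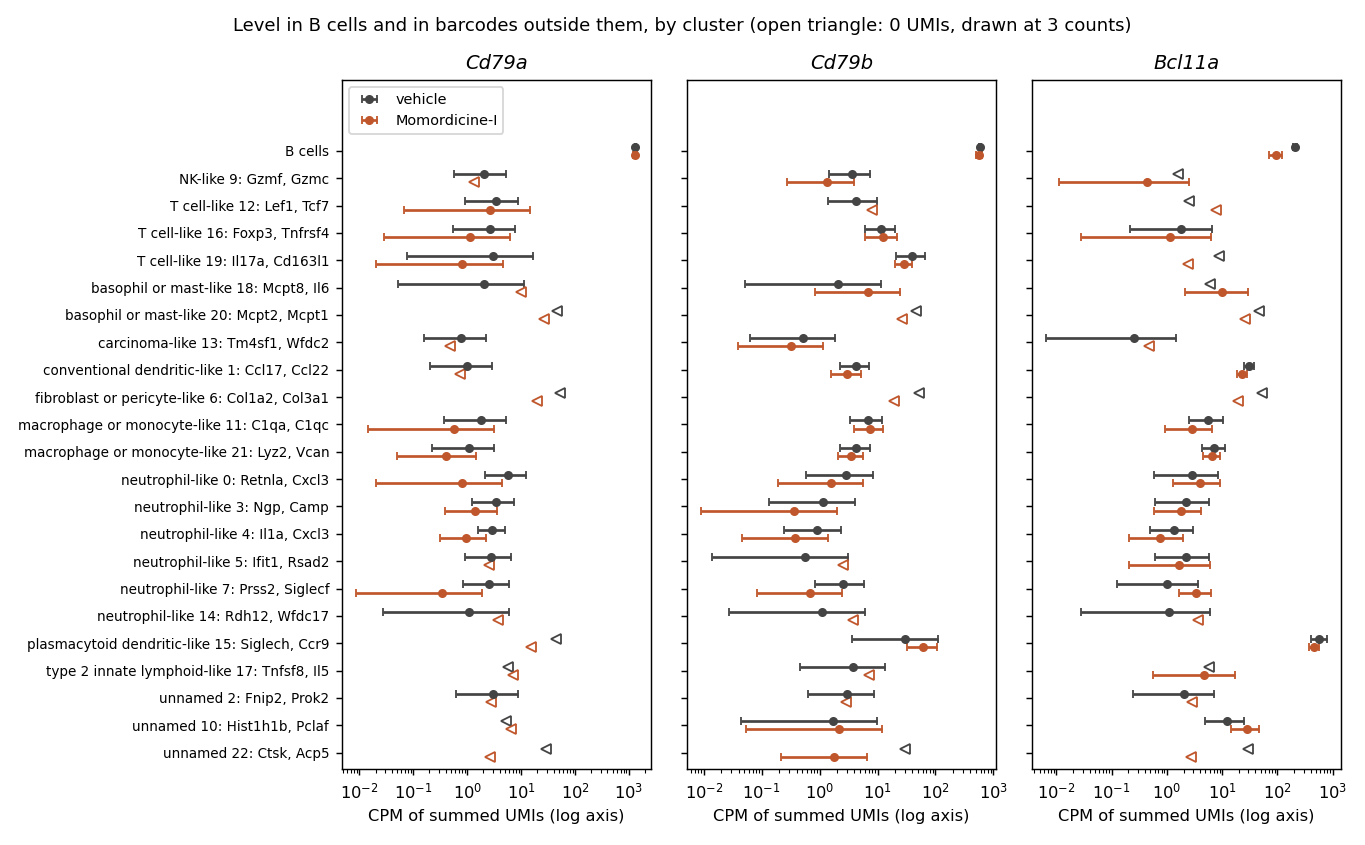
CPM of Cd79a, Cd79b and Bcl11a on a log axis in B cells and, outside them, in each cluster other than the B cell-like one, labelled by its number and 2 leading genes; bars are exact 95% Poisson intervals, and open triangles mark 0 UMIs, drawn at the level of 3 counts. Of the clusters drawn, Cd79b is highest in the plasmacytoid dendritic-like and the Il17a-led clusters, and Bcl11a in the plasmacytoid dendritic-like cluster at 572 and 462 CPM is above B cells.

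Bcl11a was highest in plasmacytoid dendritic-like cells, which make type I interferon and are led here by Siglech and Ccr9. The 5 vehicle barcodes held 38 UMIs, 572 CPM (404 to 784), and the 13 Momordicine-I barcodes held 90 UMIs, 462 CPM (371 to 568), with at least 1 UMI in each barcode. The ratio between libraries was 0.808 (0.547 to 1.21). This was 2.74-fold (1.92 to 3.81) the level of B cells in the vehicle and 4.94-fold (3.51 to 7.0) in the Momordicine-I library. Cd79a was at 0, where the gate had taken out 1 vehicle barcode of this cluster, as were Ms4a1, Ebf1, Pax5, Cd22, Cr2 and Fcer2a in both libraries. Cd79b had 2 UMIs in the vehicle and 12 in the treated library, the latter in 9 of 13 barcodes at 61.6 CPM (31.8 to 108).

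Conventional dendritic-like cells, led by Ccl17 and Ccl22, held Bcl11a at a lower level. It had 93 UMIs in 38 of 104 vehicle barcodes, 30.4 CPM (24.5 to 37.2), and 93 in 43 of 180 Momordicine-I barcodes, 23.3 CPM (18.8 to 28.5), a ratio of 0.766 (0.568 to 1.03). These are 18.1-fold (11.1 to 31.1) and 12.7-fold (8.18 to 20.5) the levels of neutrophil-like barcodes. The cluster was deep, with medians of 29318 and 21087 UMIs. Together the dendritic-like clusters held 131 of 192 Bcl11a UMIs outside vehicle B cells and 183 of 268 outside Momordicine-I B cells. Neither cluster showed a ratio as low as the 0.448 of B cells, though the intervals are wide and the difference between the ratios was not tested.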

How the data were processed

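The authors deposited raw counts, whole UMIs per gene and barcode, for 2 libraries made with the 10x Genomics 3′ kit per the labels' protocols; Cell Ranger 6.0.2 and mm10 are named in the submitters' processing notes, and the gene annotation is not given in the sources used here. Deposited totals were 33998491 UMIs over 3642 barcodes (vehicle) and 41804810 over 4693 (Momordicine-I). Barcodes with under 200 genes (25 and 26) or over 10% mitochondrial UMIs (274 and 322) were removed.

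UMIs were summed per library over B cells or other barcodes and given as CPM. Shares have Clopper-Pearson, CPM Poisson and ratios conditional binomial intervals, all exact at 95%. A gene was measured with at least 20 UMIs over both libraries, and a difference was counted from 1.5-fold. The interval calculation was run on simulated Poisson counts. These take each UMI as independent, as the intervals do, so the run cannot show how the intervals hold where few cells carry a gene. Cells were thinned to 2000 UMIs with a fixed seed, which left out 3 vehicle and 1 Momordicine-I B cells. Doublets were kept: Scrublet called 2 and 1 barcodes, so the call had not worked, and 98 and 164 top scorers (0.8% per 1000 barcodes) were removed as an alternative.

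The planned marker gates left 1001 and 1269 barcodes in several classes. Cells outside B cells are therefore described by 23 Leiden clusters (scanpy 1.11.5, 2000 variable genes without the members and without immunoglobulin and T cell receptor segments, 30 components, 15 neighbours, resolution 1), chosen after the data were seen. Cluster names rest on at least 3 enriched markers, and a cluster name may differ from the study's.

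Named genes are the 9 members; per list, the 3 of highest CPM in B cells and those past 1.5-fold with an interval past 1; and the 10 with the most similar pattern, of which 1 is not reported here. The members and lists were chosen with earlier results of these data known. Positions are from GENCODE M21 (GRCm38), matched by Ensembl identifier for all 9. Python 3.11.15, numpy 2.4.6, scipy 1.17.1 and pandas 2.3.3 were used.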

Additional observations from a re-analysis of the deposited data

How the results depend on the processing

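The ratio of B cell shares kept its direction in its 9 alternatives, from 0.233 to 0.341. The number of members past 1.5-fold in B cells, 1 in the main setting, was 4 with the wider gate that used no member. It was 2 without barcodes of a second gate and 2 at a mitochondrial limit of 5%. It was 3 for the mean of the cells' own CPM and 3 among B cells of 3000 to 10000 UMIs. In the other 12 it was within 1.5 times the main count. All these members were lower in the Momordicine-I library. Outside B cells the number was 1, the gate gene Cd79a, in place of 6 after thinning to 2000 UMIs. There most members fall under 20 UMIs and the Ebf1 ratio comes to 0.880. The number was within 1.5 times of 6 in the other 13. Among them it was 8 for the mean of the cells' own CPM, with Cd79b lower (0.653) and Bcl11a higher (1.54). Leaving out barcodes of a second gate does not alter the barcodes outside B cells and gave no value there. The cause of the moves in B cells was not tested. The B-like cluster, the B cells of 3000 to 10000 UMIs, thinning to 1000 UMIs and leaving out the dendritic-like clusters were added after seeing the data. No paired analysis was possible because each group has 1 library and the replicate numbers only name it. With 1 library per arm, nothing here separates the treatment from the pool of mice, the sort or the library, and members of few UMIs such as Cr2 are limited by depth.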
